A study of Homo sapiens with 6 samples.

Results

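Small nucleolar RNA host genes are transcribed into spliced, mostly noncoding RNAs whose introns carry small nucleolar RNAs (snoRNAs), the guides for chemical modification of ribosomal RNA. The 7 genes described here were chosen by name, as noncoding hosts: GAS5, SNHG1, SNHG5, SNHG6, SNHG8, SNHG12 and ZFAS1. All 7 were matched by symbol to an Ensembl row among 57820 gene rows, and all 7 passed the filter on low values that left 14763 genes tested. The cells were hTert-HME1, human mammary epithelial cells immortalised with telomerase, transfected with an siRNA and grown in mammary epithelial medium. Messenger RNA was sequenced in 6 libraries of this 1 cell line. The groups were BRCA2 siRNA (BRCA2-2) without EGF at passage 6 (2 libraries, A and B), BRCA2 siRNA (BRCA2-2) with EGF at passage 4 (1 library), control siRNA (control-1) with EGF at passage 6 (2 libraries, A and B) and control siRNA (control-1) with EGF at passage 4 (1 library). EGF is the ligand of the receptor EGFR, and BRCA2 is a gene of homologous recombination repair. The siRNA and the medium change together at passage 6, and a control without EGF was not analysed here.

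Values are normalised log2 values deposited by the authors, so a difference of 1 is a 2-fold change and the read depth of a library is unknown. The targeted gene did not bear out its label at passage 4. There BRCA2 was at 10.88 in the library labelled BRCA2 siRNA, against 10.19 in the control. At passage 6 it was at 11.15 and 10.89 without EGF, against 11.25 and 11.24 in controls A and B. Replicate A without EGF was thus close to the controls, so these values do not establish the knockdown at passage 6 either. Groups are therefore named by their labels, and both the size and the direction of a difference that rests on a passage 4 library hold by label only. Whether the passage 4 labels were exchanged was not tested. The 2 libraries without EGF lay farther apart than passage 6 controls A and B: B minus A had an SD across genes of 0.308 without EGF and 0.119 in the controls. A and B are called biological replicates in the labels, with nothing on separate cultures, so the p-values rest on a spread that may be technical. Of 10 mammary epithelial markers 9 passed the filter, with the basal keratins KRT5 and KRT14 between 16.56 and 17.86 in every library. EPCAM, an epithelial adhesion molecule, was between -0.18 and 0.09. None of 8 haematopoietic markers passed, and CD3E and HBB were listed at 0. An exact 0 in this table does not show low expression, since EEF1G, an elongation factor subunit that every cell uses, is also listed at 0 in all libraries.

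The mature host RNA is commonly short-lived. Many host genes start with a C followed by a run of pyrimidines, the 5′ terminal oligopyrimidine (TOP) start that ribosomal protein genes also carry, and the translation of such RNAs is under control of the kinase mTOR. Several spliced host RNAs bind ribosomes, have only short reading frames and are degraded by nonsense-mediated decay (NMD), so that they build up when translation is blocked. GAS5 was named for its accumulation in growth-arrested cells.

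The annotated start regions show how far the members share such a start. A RefSeq promoter (build GRCh38.p14) was matched for 6 of the 7 members, not for SNHG6. The lines below give 45 bases before the annotated start and 30 bases from it on, on the gene's strand, with the start C and the pyrimidines that follow it without a break in capitals. They lie at chr1:173869016-173869090 (minus strand) for GAS5, chr11:62855856-62855930 (minus) for SNHG1, chr6:85678704-85678778 (minus) for SNHG5, chr4:118278717-118278791 (plus) for SNHG8, chr1:28581844-28581918 (minus) for SNHG12 and chr20:49278597-49278671 (plus) for ZFAS1.
GAS5: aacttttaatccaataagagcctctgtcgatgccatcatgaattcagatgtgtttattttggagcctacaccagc
SNHG1: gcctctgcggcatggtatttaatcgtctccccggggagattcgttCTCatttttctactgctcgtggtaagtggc
SNHG5: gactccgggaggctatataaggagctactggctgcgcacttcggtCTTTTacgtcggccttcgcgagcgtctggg
SNHG8: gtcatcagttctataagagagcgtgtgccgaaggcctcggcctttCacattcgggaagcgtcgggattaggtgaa
SNHG12: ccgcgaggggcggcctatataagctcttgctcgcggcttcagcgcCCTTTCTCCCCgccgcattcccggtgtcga
ZFAS1: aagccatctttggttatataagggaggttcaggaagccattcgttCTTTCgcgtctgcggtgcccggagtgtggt
The run from the start C was 11 bases long in SNHG12, 5 in SNHG5, 5 in ZFAS1, 3 in SNHG1 and 1 in SNHG8, and GAS5 has an A at the annotated start. A start C with a run of at least 5 pyrimidines was thus held by 3 of 6 members. It was held by 4 of 16 other noncoding snoRNA hosts, 47 of 78 promoters of cytosolic ribosomal protein genes and 4.1% of all 35116 promoters. Transcripts can start elsewhere than the annotated base. In the GENCODE release 29 annotation 6 of 29 GAS5 transcripts, 1 of 25 SNHG1 transcripts, 3 of 23 SNHG5 transcripts, 3 of 5 SNHG6 transcripts, 1 of 5 SNHG8 transcripts, 4 of 17 SNHG12 transcripts and 3 of 10 ZFAS1 transcripts began in this way. The letters TATAA, searched on both strands from 45 to 15 bases before the start, were present in SNHG5, SNHG8, SNHG12 and ZFAS1. That is 4 of 6 members, against 2 of 16 other noncoding hosts, 9 of 78 ribosomal protein promoters and 5.0% of all promoters. In ZFAS1 the match on the other strand overlaps that on the gene's strand. These matches describe the annotated letters and do not show which starts the cells used.

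Across the 6 libraries the members formed a larger set that was highest in the passage 4 control and a pair that was not. GAS5, SNHG5, SNHG6, SNHG8 and ZFAS1 were highest in that library, 5 of 7 members, where 31.9% of tested genes were highest. SNHG1 and SNHG12 were highest in replicate B without EGF. For SNHG12 the split is narrow: the passage 4 control came second, at 11.09 against 11.18, where the replicates without EGF lay 0.29 apart. The lowest library was the one labelled BRCA2 siRNA with EGF for GAS5, SNHG1 and SNHG12, and replicate A without EGF for SNHG5, SNHG6, SNHG8 and ZFAS1.

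**Figure D1:**
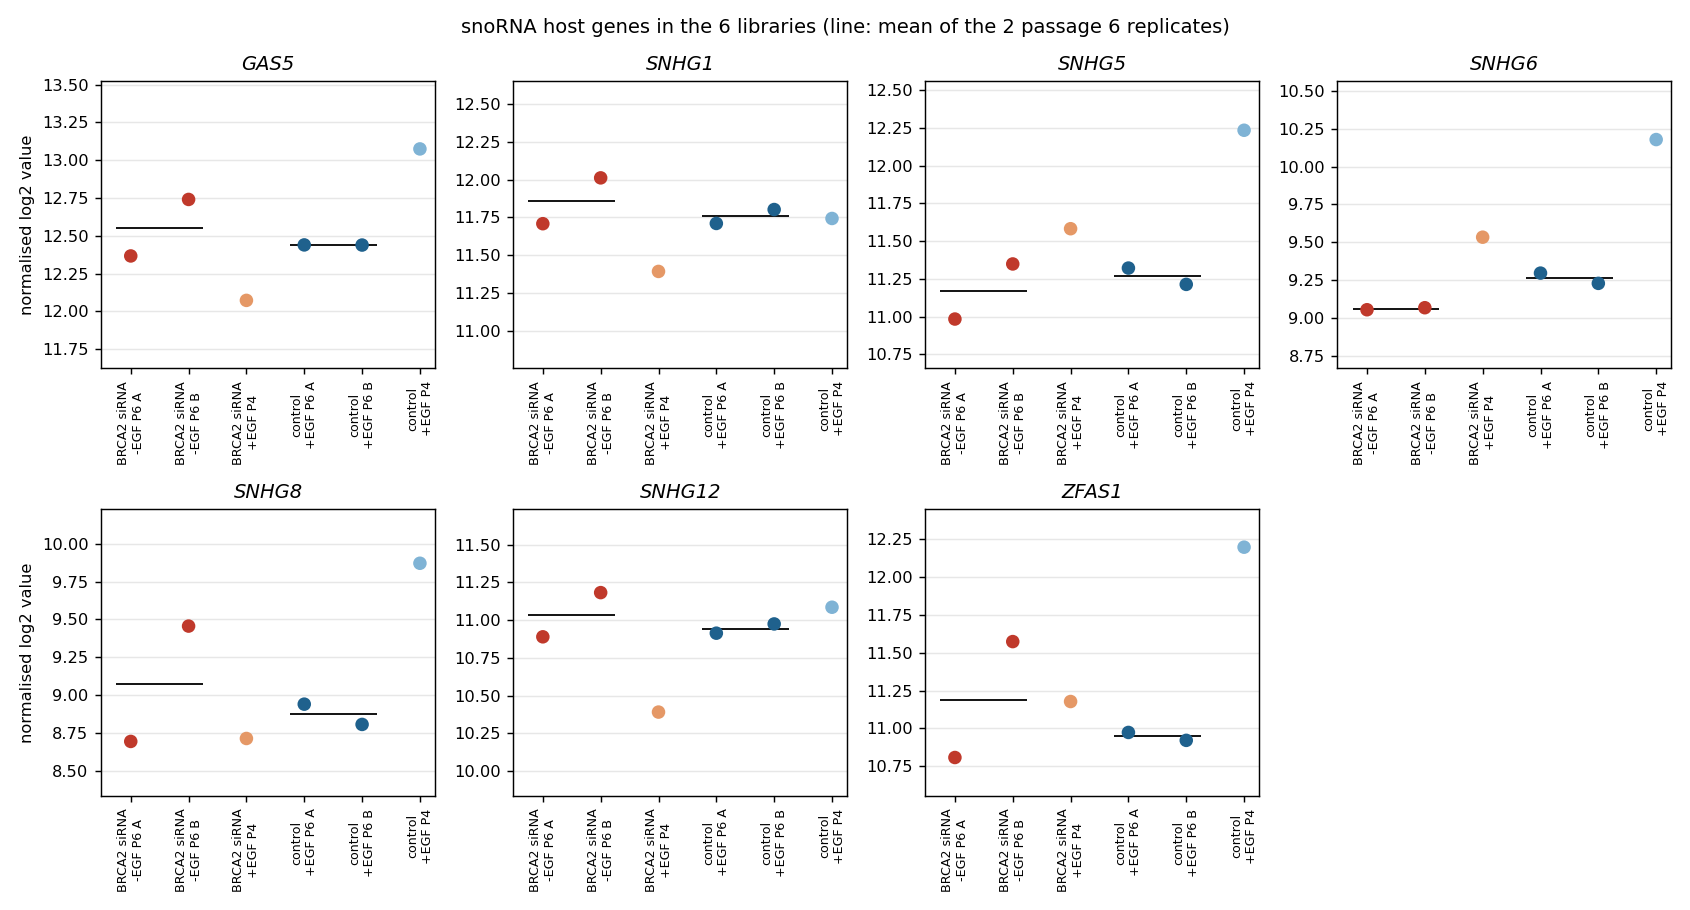
Normalised log2 values of the 7 host genes in each of the 6 libraries (1 point a library; the line is the mean of the 2 passage 6 replicates; each panel spans the same height on its own range). The passage 4 control lies above all other libraries for GAS5, SNHG5, SNHG6, SNHG8 and ZFAS1, and the replicates without EGF lie farther apart than the controls for all members but SNHG6.

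GAS5 (ENSG00000234741) hosts a row of box C/D snoRNAs, which guide ribose methylation. Its values were 12.37 and 12.74 without EGF at passage 6 and 12.07 in the passage 4 library labelled BRCA2 siRNA, against 12.44 in both passage 6 controls and 13.07 in the passage 4 control. The passage 4 libraries are thus the lowest and the highest of all 6, and the passage 6 controls lie between the replicates without EGF.

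ZFAS1 (ENSG00000177410), the host of the SNORD12 family, had 10.81 and 11.57 without EGF and 11.18 in the passage 4 library labelled BRCA2 siRNA, against 10.97 and 10.92 in the passage 6 controls and 12.20 in the passage 4 control. Its range of 1.39 over the libraries was the widest of the 7. The passage 6 groups overlap, since both controls lie between the replicates without EGF.

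SNHG8 (ENSG00000269893) hosts the box H/ACA snoRNA SNORA24, a guide of pseudouridylation. It had 8.69 and 9.46 without EGF and 8.71 in the passage 4 library labelled BRCA2 siRNA, against 8.94 and 8.80 in the passage 6 controls and 9.87 in the passage 4 control. Its order of libraries is like that of ZFAS1 at the top, with the passage 4 control first and replicate B without EGF second.

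SNHG5 (ENSG00000203875), which carries SNORD50A and SNORD50B, had 10.98 and 11.35 without EGF and 11.58 in the passage 4 library labelled BRCA2 siRNA, against 11.32 and 11.21 in the passage 6 controls and 12.23 in the passage 4 control. Here both passage 4 libraries were above all passage 6 libraries.

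SNHG6 (ENSG00000245910), the host of SNORD87, had 9.05 and 9.07 without EGF and 9.53 in the passage 4 library labelled BRCA2 siRNA, against 9.30 and 9.23 in the passage 6 controls and 10.18 in the passage 4 control. Both passage 4 libraries were again on top. SNHG6 was the one member whose passage 6 groups did not overlap, with both libraries without EGF below both controls; 64.9% of tested genes had no overlap there.

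SNHG1 (ENSG00000255717), which hosts box C/D snoRNAs, had 11.71 and 12.01 without EGF and 11.39 in the passage 4 library labelled BRCA2 siRNA, against 11.71 and 11.80 in the passage 6 controls and 11.74 in the passage 4 control. The controls of both passages lie close together, and its range of 0.62 over the 6 libraries was the narrowest.

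SNHG12 (ENSG00000197989) hosts both box C/D and box H/ACA snoRNAs. It had 10.89 and 11.18 without EGF and 10.39 in the passage 4 library labelled BRCA2 siRNA, against 10.91 and 10.97 in the passage 6 controls and 11.09 in the passage 4 control. As for SNHG1, one library stands low, the one labelled BRCA2 siRNA with EGF.

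The first comparison was matched for passage and set BRCA2 siRNA without EGF against control siRNA with EGF at passage 6. No member passed the limma test (Benjamini-Hochberg adjusted p below 0.05 over all tested genes). That is 0 of 7, beside 6.44% of tested genes (3.56% higher and 2.88% lower). GAS5, which is known to accumulate on growth arrest, averaged 12.55 ± 0.26 without EGF and 12.44 ± 0.001 in the controls (SD, n = 2 each). Its difference was 0.11 ± 0.14 (standard error; adjusted p = 0.605, limma), with a 95% interval from -0.25 to 0.48. SNHG6, with the smallest p, averaged 9.06 ± 0.01 without EGF and 9.26 ± 0.05 in the controls (SD, n = 2 each), a difference of -0.20 ± 0.08 (standard error; adjusted p = 0.153, limma). The other differences were 0.24 for ZFAS1, 0.20 for SNHG8, 0.10 for SNHG1, 0.09 for SNHG12 and -0.10 for SNHG5, with adjusted p from 0.552 to 0.654 (limma). The 95% intervals reached 0.92 for ZFAS1 and 0.89 for SNHG8, so differences up to that size in these genes were not excluded here. The median was 0.10 over the members and -0.02 over all tested genes. Ribosomal protein genes lay between -0.51 and -0.04, with 1 of 79 passing, and GAS5, SNHG1, SNHG8, SNHG12 and ZFAS1 lay above that range. With the medium and siRNA group reduced to replicate A the median was -0.14, and reduced to replicate B it was 0.26. Fibroblast markers were higher without EGF in the same comparison, with 6 of 8 tested genes passing and a summed level (2 raised to the value) of 6918 and 7100 without EGF, against 2229 and 2590 in the controls. Mammary epithelial markers moved too: 4 of 9 tested rose, among them the adhesion gene CDH1 (2.27) and the keratin KRT17 (1.52), and the luminal keratin KRT18 fell (-0.85). Their summed level was 575374 and 499803 without EGF, against 358793 and 353262 in the controls. The endothelial marker KDR rose (1.23, adjusted p = 0.0248, limma), and TEK, the other one tested, did not pass (0.64, 0.134). The markers' part in the members' values was not tested.

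**Figure D2:**
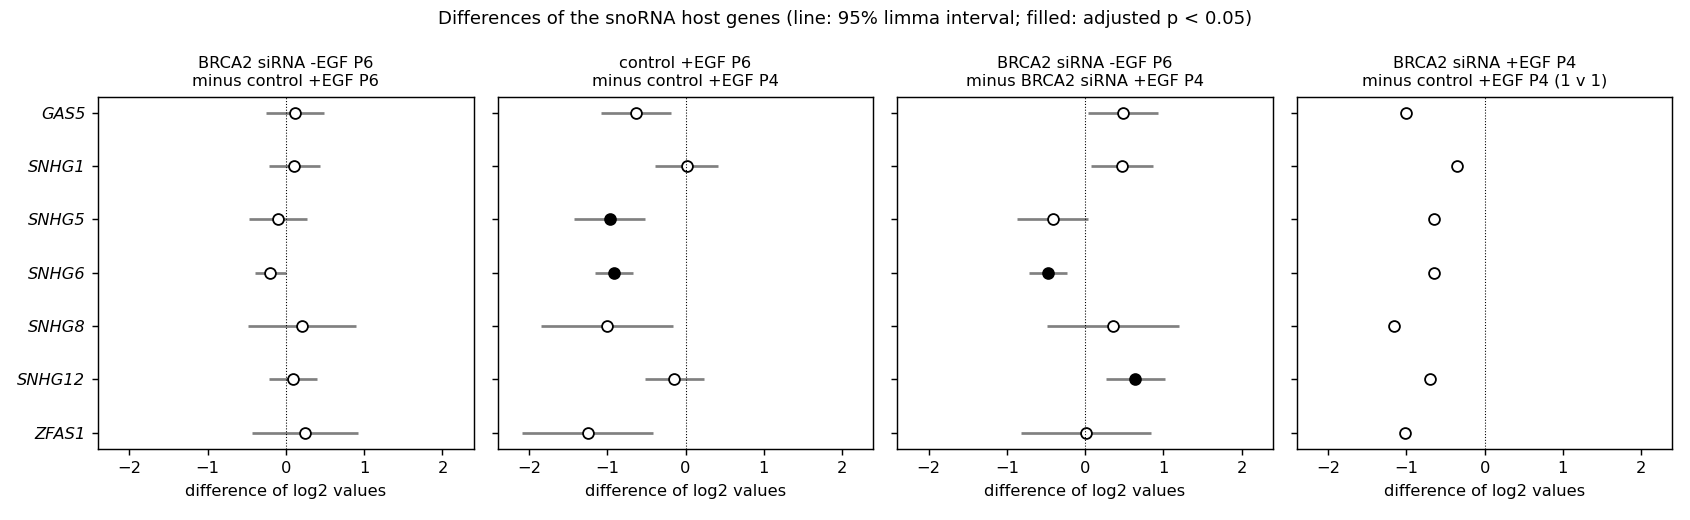
Differences of log2 values of the 7 host genes in the 4 comparisons, the first-named group minus the second (points; grey lines are 95% intervals of the limma fit, filled points have an adjusted p below 0.05; the passage 4 pair has 1 library a group and no interval). Between control passages 6 members lie below 0, and in the passage 4 pair all 7 do.

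The replicates without EGF differed from each other in all members in the same direction. Replicate B was above replicate A by 0.77 in ZFAS1, 0.76 in SNHG8, 0.37 in GAS5, 0.36 in SNHG5, 0.30 in SNHG1, 0.29 in SNHG12 and 0.01 in SNHG6. Over all tested genes 49.3% were higher in replicate B. In the controls the gap of B minus A ran from -0.13 in SNHG8 to 0.09 in SNHG1. Ribosomal protein genes had a median gap of 0.06 between the same libraries without EGF, against 0.36 for the members. The stress genes ATF3 and DDIT3, whose mRNAs are known NMD substrates, had wider gaps. ATF3 had 8.39 and 10.44 without EGF and 8.57 in the passage 4 library labelled BRCA2 siRNA, against 8.46 and 8.36 in the passage 6 controls and 10.05 in the passage 4 control. DDIT3 had 6.49 and 8.05 without EGF and 6.57 in the passage 4 library labelled BRCA2 siRNA, against 6.56 and 6.45 in the passage 6 controls and 8.34 in the passage 4 control. Both genes were thus high in the 2 libraries in which ZFAS1, SNHG8 and GAS5 were highest. Among 13 NMD-sensitive transcripts 11 were higher in replicate B than in replicate A, with a median gap of 0.54. Only 3 of the 13 were highest in the passage 4 control. SRSF2 went the other way, with 11.74 and 11.23 without EGF and its lowest value, 10.75, in the passage 4 control. What part such variation has in the members' values was not tested.

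**Figure D3:**
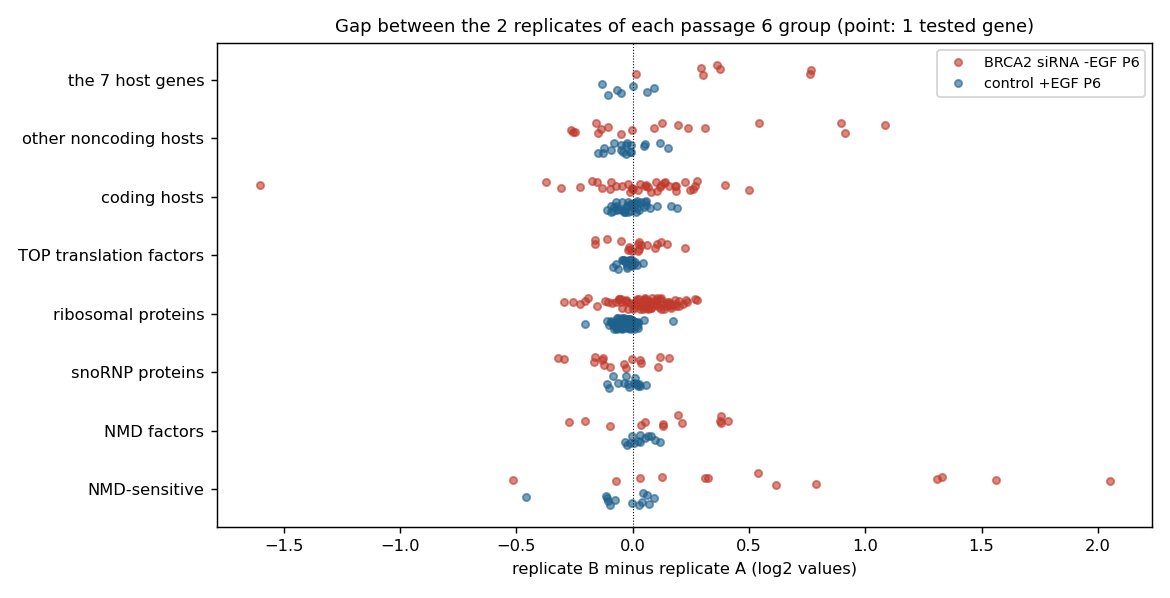
Replicate B minus replicate A in log2 values for each tested gene of the host genes and the related lists (x axis), in BRCA2 siRNA without EGF and in control siRNA with EGF, both at passage 6. All 7 host genes lie at or right of 0.01 without EGF, while in the controls they lie between -0.13 and 0.09.

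The second comparison set control cells at passage 6 against control cells at passage 4, both with EGF, so that only passage differs by label. SNHG5 and SNHG6 fell. SNHG5 averaged 11.27 ± 0.08 at passage 6 (SD, n = 2) and had 12.23 at passage 4, a difference of -0.97 ± 0.17 (standard error; adjusted p = 0.0318, limma). SNHG6 averaged 9.26 ± 0.05 (SD, n = 2) and had 10.18, a difference of -0.92 ± 0.09 (standard error; adjusted p = 0.0231, limma). ZFAS1 had -1.25 ± 0.32, SNHG8 -1.0 ± 0.32 and GAS5 -0.64 ± 0.17 (standard errors), with adjusted p of 0.0547, 0.0866 and 0.0619 (limma). SNHG12 had -0.14 and SNHG1 0.01. The 95% interval of SNHG1 ran from -0.38 to 0.41 and left out the differences of SNHG5 and SNHG6. Those differences have errors of their own and share the passage 4 control, and whether the members differ from each other was not tested. In all 2 of 7 members were lower and none higher, beside 12.4% and 7.71% of tested genes (20.1% in either direction). The median was -0.92 over the members and -0.03 over all tested genes. The lone passage 4 library is assumed to vary like the groups with 2. Both calls were lost when controls A and B were averaged, without control A or without control B. They thus depend on the spread between controls A and B entering the fit. For SNHG6 itself the replicates without EGF lay closer still, with an SD of 0.01 against 0.05 in the controls. Set against the passage 4 library labelled BRCA2 siRNA in place of the passage 4 control, without a test, the same passage 6 controls had a median member difference of 0.16, with values from -0.31 for SNHG5 to 0.55 for SNHG12.

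Most ribosomal protein genes were lower in the same comparison. Of the 79 genes for cytosolic ribosomal proteins 74 fell and 0 rose, with a median of -0.73, and of 19 tested translation factors and related genes known as TOP mRNAs 15 fell, with a median of -0.60. EEF1A1, the elongation factor that brings tRNA to the ribosome, had -0.93 (adjusted p = 0.0231, limma), and TPT1, a translationally controlled protein that hosts a snoRNA, had -1.14 (adjusted p = 0.0231, limma). These gene calls too end when controls A and B are averaged. Of 39 protein-coding snoRNA hosts, a list that overlaps both, 23 fell and 1 rose, with a median of -0.67. SNHG5, SNHG6, SNHG8 and ZFAS1 lay at the low end of the ribosomal protein genes, with 1 to 6 of the 79 below them. SNHG1 and SNHG12 lay above 76 of the 79, the other 3 being RPL17, RPS10 and RPL36A. The endothelial marker KDR, a VEGF receptor, fell as well (-1.96, adjusted p = 0.0231, limma), while TEK, the other one tested, did not pass (-0.29, 0.462). Among fibroblast markers 1 of 8 tested fell. Of 9 mammary epithelial markers tested 2 fell, KRT17 (-1.30, adjusted p = 0.0231) and KRT8 (-0.51, 0.0406), and 1 rose, ITGA6 (0.72, 0.0235, limma). What part the ribosomal protein genes and the markers have in the members' differences was not tested.

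The other noncoding hosts were mixed. Of 18 tested, 3 fell and 1 rose between control passages, with a median of -0.03. SNHG29 had -1.05 (adjusted p = 0.0438, limma), SNHG16 -0.92 (0.0231) and SNHG7 -0.78 (0.0258), and SNHG30 had 0.62 (0.0435). EPB41L4A-AS1 had the widest difference, -1.74, without passing (adjusted p = 0.0546, limma), and SNHG32 had -1.30 (0.0673). EPB41L4A-AS1 had 8.19 and 9.27 without EGF and 8.66 in the passage 4 library labelled BRCA2 siRNA, against 8.29 and 8.25 in the passage 6 controls and 10.02 in the passage 4 control. Its order of libraries is that of ZFAS1. In the passage 6 comparison 0 of these 18 passed, and MEG8, a host in an imprinted cluster, had the largest difference, -0.61 (adjusted p = 0.0679, limma).

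The third comparison stayed within BRCA2 siRNA and set cells without EGF at passage 6 against the passage 4 library labelled BRCA2 siRNA, so medium and passage change together. SNHG12 rose and SNHG6 fell. SNHG12 averaged 11.04 ± 0.21 without EGF (SD, n = 2) and had 10.39 with EGF, a difference of 0.64 ± 0.15 (standard error; adjusted p = 0.049, limma). SNHG6 averaged 9.06 ± 0.01 (SD, n = 2) and had 9.53, a difference of -0.47 ± 0.09 (standard error; adjusted p = 0.0383, limma). GAS5 had 0.48 and SNHG1 0.47, both replicates without EGF being above the library with EGF, with adjusted p of 0.117 and 0.0983 (limma). SNHG5 had -0.42, SNHG8 0.36 and ZFAS1 0.01. Thus 1 member of 7 was higher and 1 lower, beside 7.41% and 8.89% of tested genes (16.3% in either direction), and the median was 0.36 over the members and -0.02 over all tested genes. Both calls were lost with controls A and B averaged (adjusted p = 0.179 for SNHG12 and 0.220 for SNHG6). Without replicate A the median was 0.62, and without replicate B it was -0.02.

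In this comparison the ribosomal protein genes were lower, 74 of 79 with a median of -0.65. GAS5, SNHG1, SNHG8 and SNHG12 lay above all 79, ZFAS1 above 77, SNHG5 above 76 and SNHG6 above 74. Fibroblast markers moved as well: 5 of 8 tested rose and 1 fell, and their summed level was 6918 and 7100 without EGF, against 4354 in the passage 4 library labelled BRCA2 siRNA. Of 9 mammary epithelial markers tested 5 rose and 1 fell, with summed levels of 575374 and 499803 without EGF, against 305586. The endothelial markers tested, KDR and TEK, had 0.88 and 0.65. The part of these markers in the members' differences was not tested. In bulk RNA a change in the share of cells and a change per cell cannot be told apart.

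At passage 4 there was 1 library of BRCA2 siRNA and 1 of control siRNA, both with EGF, so no test was made and a gene was counted past a 2-fold difference. All 7 members were lower in the passage 4 library labelled BRCA2 siRNA than in the control, and so were 77 of 79 ribosomal protein genes. The median was -0.69 over the members and -0.04 over all tested genes. The share of all tested genes below 0 was not counted. SNHG8 had -1.16, ZFAS1 -1.02 and GAS5 -1.0, so 3 of 7 were past 2-fold, beside 1.04% of tested genes in that direction, 1.17% in the other and 2.21% in either. GAS5 and ZFAS1 are close to that limit, and 1 member was left past it when libraries were centred on their medians. SNHG12 had -0.69, SNHG5 -0.65, SNHG6 -0.65 and SNHG1 -0.35. Ribosomal protein genes had a median of -0.34, with 0 of 79 past 2-fold and a lowest value of -0.65. GAS5, SNHG8, SNHG12 and ZFAS1 lay below that lowest value, which is that of RPL12, and SNHG5 and SNHG6 below 78 of the 79. Of 8 fibroblast markers tested 3 were past 2-fold higher (LUM 1.54, COL3A1 1.35 and DCN 1.22), with a summed level of 4354 in the library labelled BRCA2 siRNA, against 2435 in the control. KDR had -1.61. The markers' part in the members' differences was not tested. Among the other noncoding hosts EPB41L4A-AS1 had -1.36 and SNHG32 -1.24, and the median of 18 was -0.13. The stress genes DDIT3 and ATF3 had -1.76 and -1.47. The difference has no replicate check, and it shares the passage 4 control with the second comparison.

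The difference between passages was then set side by side for both siRNAs, as the difference within BRCA2 siRNA minus that within the controls, in the same limma fit; this contrast was added after the data were seen. It was above 0 for all 7 members, from 0.44 in SNHG6 to 1.36 in SNHG8, with ZFAS1 at 1.26, GAS5 at 1.12 and SNHG12 at 0.79. Of the 7 members 0 passed after adjustment over all tested genes (adjusted p from 0.0688 to 0.224, limma), beside 3.85% of tested genes (2.21% above 0). The medium differs in this contrast too, and it rests on both passage 4 libraries. By its terms the contrast equals the difference of the first comparison minus that of the passage 4 pair. Over the members the former ran from -0.20 to 0.24 and the latter from -1.16 to -0.35. The sign in all 7 members is therefore set by the unreplicated passage 4 pair and is not a separate result.

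**Figure D4:**
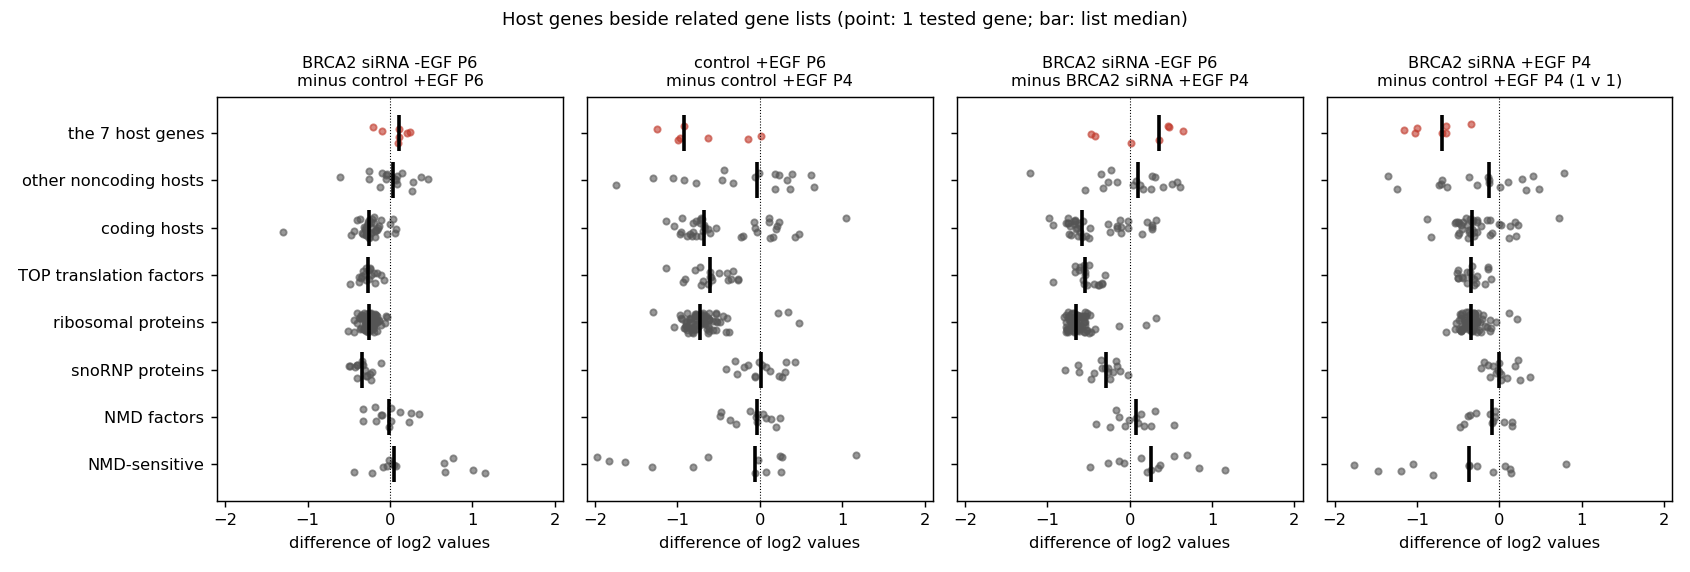
Differences of log2 values in the 4 comparisons (panels, the first-named group minus the second) for each tested gene of the host genes and 7 related lists, with the list median as a bar. Most ribosomal protein genes form a narrow group below 0 in each panel (medians -0.26, -0.73, -0.65 and -0.34 from left to right), while the host genes have medians of 0.10, -0.92, 0.36 and -0.69.

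Proteins that bind or assemble snoRNAs form the next list. In the passage 6 comparison all 16 genes of this list were below 0 and 3 fell, with a median of -0.34. They were NOP10 (-0.48, adjusted p = 0.0452), a small H/ACA core protein, RUVBL1 (-0.40, 0.0442), an ATPase of snoRNP assembly, and SNU13 (-0.40, 0.0452), a box C/D core protein (limma). Between control passages NOP56, a box C/D core protein whose gene also hosts snoRNAs, rose (0.43, adjusted p = 0.0488) and SNU13 fell (-0.42, 0.0381), with a list median of 0.01. Within BRCA2 siRNA 3 fell, among them NOP10 (-0.78, adjusted p = 0.023, limma), with a median of -0.29. Of 13 NMD factors none passed in the passage 6 comparison. CASC3, of the exon junction complex, fell between control passages (-0.49, adjusted p = 0.0388, limma), and MAGOH, of the same complex, fell within BRCA2 siRNA (-0.41, adjusted p = 0.048, limma). Of the 13 NMD-sensitive transcripts, 1 fell and 1 rose between control passages and none passed in the other tested comparisons. GABARAPL1, an autophagy gene, fell (-1.98, adjusted p = 0.0281, limma), and SRSF2, a splicing factor, rose (1.17, adjusted p = 0.0348, limma).

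The 5 tested genes whose values ran most like the mean member profile over the 6 libraries were FOXC1, SETDB2, CLIP4, HERPUD2 and SLC7A6OS, with Pearson r from 0.993 to 0.998 over 6 libraries, given as a description. Without the passage 4 control r was from 0.969 to 0.989 over the other libraries. FOXC1, a forkhead transcription factor, had 8.66 and 8.86 without EGF and 8.70 in the passage 4 library labelled BRCA2 siRNA, against 8.73 and 8.70 in the passage 6 controls and 9.08 in the passage 4 control. Of the members, SNHG8 (r = 0.984) and ZFAS1 (0.964) were closest to their shared profile, of which they are a part, and SNHG1 (0.376) and SNHG12 (0.569) were farthest.

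Mature snoRNAs carry no poly(A) tail, and the libraries were made from purified mRNA. Of 29 snoRNAs hosted by the members 10 were matched to a row, 5 of these were listed at 0 in all libraries, and only SNORD99 in SNHG12 passed the filter, with values from 3.45 to 3.98. Its highest library was control B at passage 6 and its lowest the passage 4 control, unlike its host. Genes on the opposite strand overlap some members in the GENCODE release 29 annotation, and whether the authors' counting used strand is not given in the sources used here, so reads there could not be told apart. ZFAS1 overlaps ZNFX1 (11.42 and 11.49 without EGF, 11.27 in the passage 4 library labelled BRCA2 siRNA, 11.28 and 11.29 in the passage 6 controls, 11.03 in the passage 4 control). GAS5 overlaps ZBTB37, which lay between 8.63 and 9.13 in the 6 libraries, and SNHG12 overlaps TRNAU1AP, between 8.71 and 8.98. None of these 3 genes was highest in the passage 4 control. GAS5-AS1, opposite GAS5, and MCMDC2, opposite SNHG6, lay between 2.76 and 3.33.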

How the data were processed

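Messenger RNA was purified on magnetic beads for sequencing libraries, per the labels' protocols. The submitters' processing notes name TopHat2 2.0.11, hg19 and DESeq2 without a version. No source used here names the counter, the annotation or the transformation. Log2 values were deposited by the authors per Ensembl gene, with 25986 of 57820 rows at 0 in all libraries and 0 rows at 0 in some only. Depth is unknown, so counting intervals could not be given. Symbols matched 89.9% of rows.

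Column names are those the labels give for the 6 samples. The values were fitted with limma 3.58.1 in R 4.3.3 (4 groups, trend and robust prior, 2 residual degrees of freedom, two-sided) for genes whose back-transformed (2 to the power of the value) mean was 10 or more, and p-values were adjusted over all 14763. The procedure was tested on simulated data. Alternatives covered scaling, filters, the prior, grouping, left-out libraries and a block on replicate letters. Members and lists were chosen with earlier results of these data known. Named are all members and, per list, up to 4 genes with the largest differences in a comparison at such a mean of at least 20. SNU13 at passage 6, SNHG7 and SNHG30 between control passages, SRSF2, EEF1G, RPL17, RPS10 and RPL36A were named after their values were seen. The same holds for the overlapping genes. Sequences and the positions of the start regions are from RefSeq, build GRCh38.p14. The authors used hg19, so these positions do not apply to their alignments. Coordinates of whole genes are not given. Items withheld for evaluation are not reported here.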

Additional observations from a re-analysis of the deposited data

How the results depend on the processing

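The number of members that passed depends on how the spread is estimated. Over the settings that leave out 1 passage 6 library it ran from 0 to 6 in the passage 6 comparison, 0 to 6 between control passages and 0 to 7 within BRCA2 siRNA, and the median difference ran from -0.14 to 0.26, from -0.95 to -0.88 and from -0.020 to 0.62. The high counts come without a library lacking EGF, where controls A and B alone give the spread and up to 8964, 9849 and 9215 of all genes passed, against 950, 2963 and 2406 with all libraries. With controls A and B averaged, 0 members passed between control passages and 0 within BRCA2 siRNA (46, 0 and 203 genes in all). With no filter on low values these were 0 and 0 (76, 0 and 0 genes); without trend and robust prior 1 passed within BRCA2 siRNA. With the controls pooled over passage, 0 passed within BRCA2 siRNA (30 genes in all, 146 in the first comparison), the first median was -0.13 (GAS5 -0.10, SNHG8 -0.13, ZFAS1 -0.17), and BRCA2 siRNA with EGF against all controls had a median of -0.36, with 0 of 7 members and 0 genes past the limma test. Median centring left 1 member past 2-fold at passage 4.

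Signs turned in further cases. Leaving out replicate B or replicate A without EGF gave passage 6 differences of -0.073 or 0.30 for GAS5, -0.048 or 0.26 for SNHG1, -0.28 or 0.081 for SNHG5, -0.18 or 0.58 for SNHG8, -0.055 or 0.24 for SNHG12 and -0.14 or 0.63 for ZFAS1. Within BRCA2 siRNA they were -0.020 or 0.74 for SNHG8 and -0.37 or 0.40 for ZFAS1. Between control passages SNHG1 was at -0.033 without control B and 0.059 without control A. Besides these, the pooled controls above and the replicate blocks below, no setting run turned the sign of a member.

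The replicate letters do not pair the samples by label. Across tested genes A minus B in the controls and without EGF correlated at -0.17. With the letter as a replicate block 5 members passed between control passages, 0 within BRCA2 siRNA (937 genes) and 0 at passage 6; SNHG1 was at -0.086 between control passages and ZFAS1 at -0.17 within BRCA2 siRNA. With the letters crossed in the block, added after the data were seen, the counts were 5, 0 and 0 (1795 genes at passage 6), with SNHG1 at -0.040, ZFAS1 at -0.19 and a median of 0.14 within BRCA2 siRNA.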
